A study of Mus musculus with 2 samples.

Results

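Proteasome subunit genes were compared between libraries of sorted muscle cells labelled quiescent (QSC) and activated (ASC) satellite cells. Below, QSCs and ASCs name these libraries and not a cell type, since many of their barcodes carried markers of other cells. All features whose symbol began with Psma, Psmb, Psmc, Psmd or Psme followed by a number were taken, without pseudogene symbols, which gave 45 of the 32285 genes counted. Psmc3ip encodes a meiotic recombination factor and was set aside, which left 44 genes for subunits, activators and assembly chaperones of the proteasome. Of these, 42 had at least 1 UMI in a kept barcode, and Psma8 and Psmb11, the core subunits of testis and thymus, had 0 in both libraries, which allows up to 2.58 CPM (UMIs of a gene per 1000000 UMIs of its library) in QSCs and 0.337 in ASCs (3 counts of the total).

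The proteasome degrades proteins that carry ubiquitin chains. Its 20S core is a barrel of stacked rings, in which the outer alpha rings gate access and the inner beta rings hold the catalytic sites. The 19S regulatory particle caps the barrel: its base of AAA ATPases and scaffold subunits unfolds the substrate, and its lid removes the ubiquitin. Cells of the immune system, and other cells exposed to interferon-γ, replace the catalytic subunits Psmb6, Psmb7 and Psmb5 by Psmb9, Psmb10 and Psmb8, which changes the peptides made for class I antigen presentation. In skeletal muscle the ubiquitin-proteasome pathway is best known for the breakdown of contractile proteins in atrophy, and in satellite cells (SCs) for the turnover of regulators of myogenesis.

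Both libraries came from tibialis anterior (TA) muscle of mice with the alleles Pax7 CreERT2/+ and Rosa26 mTmG/+, aged 8 weeks, in which a Cre recombinase under the Pax7 locus switches a reporter on in SCs. QSCs were sorted from uninjured muscle, and ASCs from muscle injured with cardiotoxin (CTX) 1.5 days before. Per the study's methods each library pooled cells of several mice. Each group was 1 library, so no difference had a replicate check and none was tested, and animal, injury, sort and library cannot be told apart. All intervals are 95% intervals of the counting error of UMIs, exact unless stated, and they cover neither the spread between cells nor that between animals.

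After limits of at least 500 genes and at most 10% mitochondrial UMIs, 516 QSC barcodes with 1162091 UMIs and 1468 ASC barcodes with 8895815 UMIs remained. Median depth was 2155 UMIs in QSCs and 3502 in ASCs, and median mitochondrial content 4.44% and 0.297%. Marker classes were formed from the share of a barcode's UMIs that fell on marker genes, with cuts set after the data were seen; they are ranges of a score, not cell types. Fibre-high barcodes, with at least 5% of UMIs on fast-fibre genes such as Acta1, Ckm and Mylpf, were 104 of the QSC and 956 of the ASC barcodes. Immune-marker barcodes were 16 and 99, stromal-marker barcodes 23 and 4, and the remaining barcodes 373 and 409. Pax7, which defines SCs, was at 213 CPM in the remaining QSC barcodes and 29.8 in the remaining ASC barcodes, but only at 9.32 and 2.25 in fibre-high barcodes. Myod1, the factor of activation, was at 148 and 417 CPM in the remaining barcodes and at 14.0 and 168 in fibre-high barcodes. The median share of a barcode's UMIs on the whole satellite cell marker list was 0.589% in the remaining QSC and 0.25% in the remaining ASC barcodes, and 0.232% and 0.410% in fibre-high barcodes, so that Pax7 was low in fibre-high barcodes while the list as a whole was not low in those of the ASC library. That list holds genes beside Pax7, such as Des and Musk, and its share is not split by gene here. It therefore does not say which cells the fibre-high barcodes hold. Because fibre-high barcodes made up 20.2% of the QSC and 65.1% of the ASC barcodes, each main value is also given within classes.

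Promoters of some of the catalytic subunit genes are shown first, Psmb5 and Psmb6 of the constitutive and Psmb9 of the immune subunits, because these groups are contrasted in the results. RefSeq start-site windows on GRCm38.p6 were matched for 37 of the 44 genes. The letters TGACNNNGC, the core of the antioxidant response element that Nfe2l1 and Nfe2l2 bind, were searched on both strands and are in capitals below. They lay in the windows of Psmb5 and Psmb6, for which the 250 bases before the start are printed, and of Psmc6, Psmd12, Psmd9 and Psme4. This was 16.2% of members with a window, and 14.0% of all genes with a window had a match, so the share among members was near the background. The interferon response letters GAAANNGAA were in the windows of 16.2% of members and 9.76% of genes, and those members were Psmb3, Psmb4, Psmc2, Psmd4, Psmd9 and Psme1, none of them an immune catalytic gene. The letters of the gamma-activated site, TTCNNNGAA, were added after the data were seen, and lay in the windows of Psmb8 and Psmd2 (9.55% of genes).
Psmb5, minus strand, chr14:54617996-54618245: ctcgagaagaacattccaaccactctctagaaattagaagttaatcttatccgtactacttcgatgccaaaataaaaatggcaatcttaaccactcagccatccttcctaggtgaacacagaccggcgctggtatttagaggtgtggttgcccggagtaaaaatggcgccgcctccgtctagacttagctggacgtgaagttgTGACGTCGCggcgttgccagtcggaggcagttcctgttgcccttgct
Psmb6, plus strand, chr11:70525107-70525356: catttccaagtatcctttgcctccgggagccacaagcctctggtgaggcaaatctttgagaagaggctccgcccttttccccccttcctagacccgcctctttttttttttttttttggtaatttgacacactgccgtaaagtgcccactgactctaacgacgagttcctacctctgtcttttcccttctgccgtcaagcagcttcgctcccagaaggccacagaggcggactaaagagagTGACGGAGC
Psmb9 and Tap1, plus strand, chr17:34187331-34187555: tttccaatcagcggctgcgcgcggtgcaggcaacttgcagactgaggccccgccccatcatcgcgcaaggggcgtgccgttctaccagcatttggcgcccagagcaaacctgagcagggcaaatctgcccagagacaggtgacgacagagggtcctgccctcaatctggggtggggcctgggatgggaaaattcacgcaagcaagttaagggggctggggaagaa
The motif began 47 bases before the start of Psmb5 and 9 bases before that of Psmb6, each on the plus strand of the window. Psmb9, an immune catalytic subunit, and Tap1, a subunit of the peptide transporter, start head to head. The 225 bases shown are the whole stretch between their RefSeq starts. In GENCODE M21 the Psmb9 gene model reaches to 34187764, past the Tap1 start at 34187553, so the gene models overlap there. None of the 3 motifs was in the Psmb9 window, which says only that these letters were not there. The position of a motif says nothing of whether a factor bound it.

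The summed level of the subunit genes was higher in the ASC library. It was 5020 CPM in QSCs (5834 UMIs) and 8895 in ASCs (79126 UMIs), or 0.502% and 0.889% of all UMIs. The log2 ratio of ASC over QSC was 0.83 (0.79 to 0.86), where the median of the 7353 genes with a mean level of at least 10 CPM was -0.12. The ratio was above 1 for 39 of the 42 genes with UMIs, while 46.3% of the 7353 genes were above 1. A total of 13 were called higher, which required a ratio of at least 2 with an interval above 1, against 13.6% of all genes, and 0 were called lower, against 22.6%. Psmb9, among the 13, passed the limit on low levels only through its ASC level. With the 1% mitochondrial limit of the study's methods, which leaves 86 QSC and 948 ASC barcodes, the summed log2 ratio was 0.52 (0.44 to 0.60), 8 members were called higher and 0 lower. Over all genes the median moved from -0.12 to 0.06, and the share of calls that were higher from 37.5% to 65.8%, with the 1% limit. Psma6, Psmb7, Psmb9, Psmc2 and Psmd7 were no longer called there, and Psmb8 was called on 0 QSC UMIs. Scaling by TMM added 0.31 to every log2 ratio, and 27 members were then called higher and 0 lower. Over all genes the share of calls that were higher moved from 37.5% to 57.7% with TMM. This is a share among calls. The share of all genes called higher is not given for the 1% limit or TMM, so the counts of 8 and 27 lack that background.

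**Figure D1:**
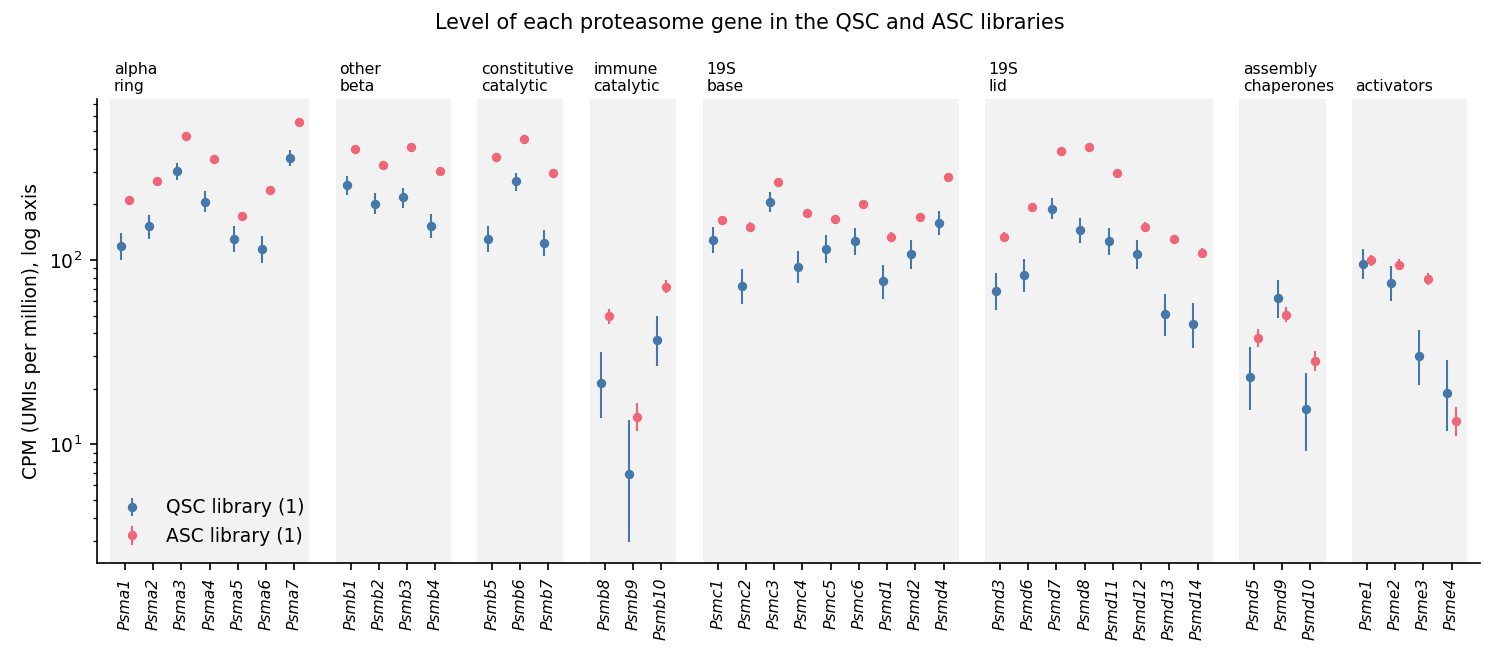
Level of each proteasome gene (CPM, log axis) in the QSC library (blue) and the ASC library (red), grouped by role. Points are the single library of each group and bars are 95% Poisson intervals of the count. Red lies above blue for every gene of the core, of the immune catalytic group and of the 19S particle, while it lies below blue for Psme4 and Psmd9 and level with it for Psme1.

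In the 20S core, which has 14 constitutive genes, all 14 ratios were above 1, against 46.3% of all genes. There 3 genes were called higher, against 13.6% of all genes. The median log2 ratio was 0.79, from 0.40 for Psma5 to 1.47 for Psmb5. Of the alpha ring genes, which form the gate of the barrel, Psma6 was called higher, from 114 CPM in QSCs (133 UMIs) to 241 in ASCs (2142 UMIs), a log2 ratio of 1.07 (0.82 to 1.34), which was 0.70 (0.18 to 1.27) and not called with the 1% limit. Psma5 was the lowest of the ring, from 131 CPM (152 UMIs) to 173 (1539 UMIs), a log2 ratio of 0.40 (0.16 to 0.65). The alpha ring as a whole had a median of 0.77, and the beta subunits without a catalytic site, here Psmb1 to Psmb4, had a median of 0.79. These rings therefore lay close together, and neither was at the 2-fold line.

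The constitutive catalytic subunits spanned a wider range. Psmb5, which carries the chymotrypsin-like activity that inhibitors such as bortezomib block, went from 131 CPM (152 UMIs) to 363 (3232 UMIs), a log2 ratio of 1.47 (1.24 to 1.72). Psmb7, the trypsin-like subunit, went from 124 (144 UMIs) to 298 (2650 UMIs), a log2 ratio of 1.27 (1.02 to 1.52). With the 1% limit it was 0.48 (0.06 to 0.93) and the call was lost. Psmb6, the caspase-like subunit, went from 267 (310 UMIs) to 450 (4007 UMIs), a log2 ratio of 0.76 (0.59 to 0.93). The intervals of Psmb5 and Psmb7 overlapped and both lay above that of Psmb6 under the 10% limit, while with the 1% limit Psmb6 was at 0.53 (0.18 to 0.91), level with Psmb7, and Psmb5 at 1.13 (0.66 to 1.64).

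The immune catalytic subunits were scarcer in both libraries. Psmb8, the counterpart of Psmb5, was at 21.5 CPM in QSCs (25 UMIs) and 49.6 in ASCs (441 UMIs), a log2 ratio of 1.20 (0.62 to 1.85). Psmb9, the counterpart of Psmb6, was at 6.88 (8 UMIs) and 14.2 (126 UMIs), a log2 ratio of 1.04 (0.02 to 2.28). Psmb10, the counterpart of Psmb7, was at 37.0 (43 UMIs) and 71.7 (638 UMIs), a log2 ratio of 0.95 (0.51 to 1.44). Psmb8 and Psmb9 were called higher, and the few QSC UMIs leave each interval wide. Without immune-marker barcodes Psmb8 was at 0.04 (-0.61 to 0.75) and Psmb9 at 0.46 (-0.74 to 1.96), and neither was called. Psmb10 was at 0.86 (0.38 to 1.37) there. In the remaining barcodes alone Psmb8 was at 0.81 (-0.01 to 1.76) and Psmb9 at 1.58 (-0.04 to 3.90), also not called. In GENCODE M21 Psmb9 overlaps Tap1 on the opposite strand, Psmb8 overlaps Gm20496 and Psmb10 overlaps Gm16156, also on the opposite strand. Whether strand was used in counting is not given in the sources used here.

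In the 19S particle all 17 ratios were above 1, against 46.3% of all genes, with a median log2 ratio of 0.96. A total of 7 genes were called higher, against 13.6% of all genes. The base, with the ATPases Psmc1 to Psmc6 and the large or ubiquitin-binding subunits Psmd1, Psmd2 and Psmd4, had a median of 0.67. Among its 9 genes Psmc2 was called, from 72.3 CPM (84 UMIs) to 152 (1350 UMIs), a log2 ratio of 1.07 (0.75 to 1.41), which was 0.84 (0.18 to 1.58) and not called with the 1% limit. Psmc1 and Psmc3 were the lowest: Psmc1 went from 129 (150 UMIs) to 165 (1470 UMIs), a log2 ratio of 0.36 (0.11 to 0.61). Psmc3 went from 207 (240 UMIs) to 265 (2355 UMIs), with the same ratio of 0.36 (0.17 to 0.56). The ATPases form 1 ring in the particle, and the intervals of Psmc2 and of these ATPases did not overlap over all kept barcodes. With the 1% limit and within fibre-high barcodes the interval of Psmc2 overlapped both of theirs. Within the remaining barcodes it overlapped that of Psmc1 (0.57 to 1.35 against 0.09 to 0.69) and not that of Psmc3 (0.09 to 0.56).

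The lid stood above the base. Its 8 genes had a median log2 ratio of 1.23, and 6 of them were called higher, against 13.6% of all genes. Psmd8 had the highest ratio of all members with at least 20 UMIs in each library: 145 CPM in QSCs (168 UMIs) and 408 in ASCs (3632 UMIs), a log2 ratio of 1.50 (1.27 to 1.73). Psmd13 went from 50.8 (59 UMIs) to 129 (1150 UMIs), a log2 ratio of 1.35 (0.97 to 1.75). Psmd14, the metalloprotease that cuts ubiquitin from the substrate, went from 44.7 (52 UMIs) to 109 (971 UMIs), a log2 ratio of 1.29 (0.88 to 1.72). The intervals of these lid genes overlapped one another and that of Psmb5. Psmd11, a scaffold subunit known to set the level of assembled 26S proteasome in embryonic stem cells, went from 126 (147 UMIs) to 298 (2649 UMIs), a log2 ratio of 1.24 (0.995 to 1.48). Psmd6 went from 82.6 (96 UMIs) to 193 (1721 UMIs), a log2 ratio of 1.23 (0.93 to 1.54). Psmd7, the inactive partner of Psmd14, went from 190 (221 UMIs) to 388 (3448 UMIs), a log2 ratio of 1.03 (0.83 to 1.23). With the 1% limit it was 0.17 (-0.17 to 0.51) and the call was lost. Psmd3 was just short of the line at 0.97 (0.64 to 1.32), and Psmd12 was the lowest lid gene at 0.50 (0.23 to 0.77).

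As UMIs of a 3′ library count captured molecules and not length, sums over groups of genes could be set against each other within a library. Lid over base was 0.751 in QSCs (947 and 1261 UMIs) and 1.05 in ASCs (16108 and 15279 UMIs). The log2 of the ratio of these ratios was 0.49 (0.36 to 0.62), above 0 by more than the counting error. The difference was also there within fibre-high barcodes, where lid over base went from 0.993 to 1.31, at 0.39 (0.15 to 0.64), and within the remaining barcodes, from 0.682 to 0.879, at 0.37 (0.21 to 0.52). By contrast the whole 19S particle over the core hardly moved. It was 0.695 in QSCs and 0.731 in ASCs, a difference of 0.07 on the log2 scale with an interval of -0.01 to 0.15. Within fibre-high barcodes it went from 0.708 to 0.813, at 0.20 (0.04 to 0.36), and within the remaining barcodes from 0.696 to 0.688, at -0.02 (-0.12 to 0.08). Immune-marker ASC barcodes stood lower, at 0.521, on 1100 UMIs of the 19S particle.

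The chaperones that assemble the 19S base did not move together. Psmd10, also known as gankyrin, went from 15.5 CPM (18 UMIs) to 28.4 (253 UMIs), a log2 ratio of 0.88 (0.19 to 1.65), and Psmd5 had 0.71 (0.14 to 1.33). Psmd9, the chaperone of the Psmc6 and Psmc3 pair, was at 62.0 CPM in QSCs (72 UMIs) and 50.6 in ASCs (450 UMIs). Its log2 ratio was -0.29 (-0.65 to 0.09), whose interval held 0, and with TMM scaling it was 0.02. Psmd9 overlaps Hpd and Gm43409 on the opposite strand.

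The activators, which open the core without the 19S particle, were the most divided group. Psme3, the nuclear activator PA28-gamma that works without ATP or ubiquitin, went from 30.1 CPM (35 UMIs) to 78.8 (701 UMIs), a log2 ratio of 1.39 (0.90 to 1.92). Psme1 and Psme2, which form the interferon-inducible cytoplasmic activator, did not go with it. Psme1 was at 95.5 (111 UMIs) and 99.7 (887 UMIs), a log2 ratio of 0.06 (-0.22 to 0.36). Psme2 was at 74.9 (87 UMIs) and 94.2 (838 UMIs), a log2 ratio of 0.33 (0.01 to 0.67). Psme3 over the sum of Psme1 and Psme2 went from 0.177 to 0.406, a difference of 1.20 on the log2 scale (0.66 to 1.78). It was 1.25 (0.07 to 2.60) within fibre-high barcodes and 1.41 (0.76 to 2.12) within the remaining barcodes. Psme4, the activator PA200 of spermatids and DNA repair, was at 18.9 (22 UMIs) and 13.4 (119 UMIs), a log2 ratio of -0.50 (-1.17 to 0.23). That interval held 0, and within the remaining barcodes the ratio was 0.13 (-0.72 to 1.09). Psme2b, a copy of Psme2 inside other gene models, had 1 UMI in QSCs and 4 in ASCs.

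**Figure D2:**
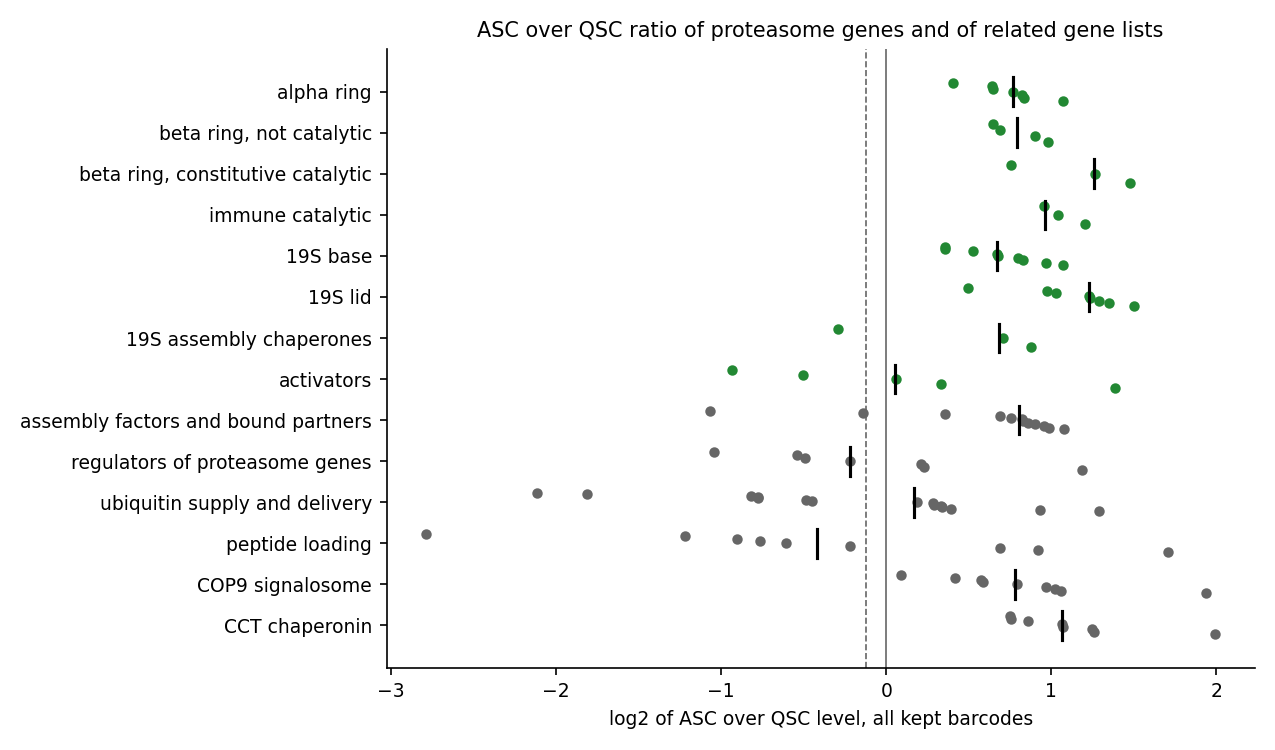
Log2 ratio of ASC over QSC (all kept barcodes) of each gene, by role for the proteasome genes (green) and by list for related genes (grey). The black bar is the median of the list with 0.5 UMIs added to each count, and the dashed line is the median of all measured genes, at -0.12. Lid genes centre on 1.23 and base genes on 0.67, and the ubiquitin genes and activators spread to both sides of 0.

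The genes around the proteasome were described from fixed lists. Of 12 assembly factors and bound partners, 10 had a ratio above 1, 1 was called higher and 1 lower, with a median log2 ratio of 0.80. Among all genes 46.3% had a ratio above 1, 13.6% were called higher and 22.6% lower, so the list stood apart from them in its ratios above 1 and not in its calls higher. Adrm1, the ubiquitin receptor of the base, was called higher at 1.08 (0.79 to 1.38), and Pomp, which matures the core, was at 0.82 (0.62 to 1.03). Ecpas, which holds the core and the 19S particle together, was called lower, from 29.3 CPM (34 UMIs) to 13.9 (124 UMIs), a log2 ratio of -1.07 (-1.63 to -0.48).

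Of 7 regulators of proteasome genes, 3 had a ratio above 1 over all kept barcodes and 1 was called lower, with a median of -0.22. This was near the 46.3% above 1 and 22.6% lower among all genes and their median of -0.12. Within the remaining barcodes 2 were above 1 and the median was -0.73, where that of all genes was -0.13. Within fibre-high barcodes 4 were above 1 and the median was 0.03, where that of all genes was 0.02. Nfe2l2, the factor of the oxidative stress response, was called lower at -1.04 (-1.30 to -0.78) over all kept barcodes. It was at -1.15 (-1.44 to -0.85) in the remaining barcodes and 0.40 (-0.76 to 1.88) in fibre-high barcodes, on 6 QSC UMIs. Nfe2l1, which restores proteasome genes when the proteasome is inhibited, was at 0.23 (-0.13 to 0.61). Zfand2a was the highest at 1.19 (0.10 to 2.53) on 7 QSC UMIs and was under the limit on low levels. It was at -0.08 (-1.46 to 1.65) in the remaining barcodes, and had 0 QSC and 81 ASC UMIs in fibre-high barcodes. The level of neither Nfe2l1 nor its protease Ddi2, at -0.54 (-1.20 to 0.19), moved beyond counting error.

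Of 15 genes of ubiquitin supply and delivery, 8 had a ratio above 1, 0 were called higher and 2 lower, with a median of 0.17. The shares above 1 and called lower were near those of all genes, at 46.3% and 22.6%, and 13.6% of all genes were called higher. Ubqln2, a shuttle of ubiquitinated proteins, was among those called lower, at -1.81 (-2.28 to -1.33). Nploc4, a cofactor of the segregase Vcp, had the list's highest ratio at 1.29 (0.12 to 2.76) on 6 QSC UMIs and was under the limit on low levels. Within fibre-high barcodes 12 of the 15 genes had a ratio above 1, against 54.5% of all genes, with a median of 0.58. Within the remaining barcodes 8 did, against 46.3%, with a median of -0.04.

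Of 10 genes of peptide loading and interferon signalling, 4 had a ratio above 1 and 1 was called lower among the 6 that passed the limit, near the 46.3% and 22.6% of all genes. Irf1, an interferon-induced factor known to drive the immune subunits, was called lower, from 110 CPM (128 UMIs) to 16.0 (142 UMIs), a log2 ratio of -2.79 (-3.14 to -2.43). Tap1, which shares its start region with Psmb9, was at 3.44 (4 UMIs) and 11.2 (100 UMIs), a log2 ratio of 1.71 (0.31 to 3.61), and was under the limit on low levels. Immune-marker barcodes held 41.0% of its ASC UMIs, and in the remaining barcodes its ratio was 1.22 (-0.22 to 3.14). The COP9 signalosome, a complex built like the lid, had ratios above 1 for all 9 genes, a median of 0.78, and 2 of the 8 genes past the limit called higher, which were Cops4 at 1.06 (0.68 to 1.46) and Cops5 at 1.02 (0.68 to 1.39). Its extremes were Cops7b at 1.93 (0.54 to 3.83) on 4 QSC UMIs and Cops7a at 0.09 (-0.27 to 0.47). The CCT chaperonin, an unrelated multi-subunit complex that folds actin and tubulin, had ratios above 1 for all 8 genes, a median of 1.06, and 5 called higher: Cct2 at 1.99 (1.68 to 2.32), Cct6a at 1.26, Tcp1 at 1.25, Cct8 at 1.07 and Cct3 at 1.06. Its lowest gene was Cct5 at 0.75 (0.56 to 0.94). Against 13.6% of all genes called higher, a larger share of CCT genes (5 of 8) was called than of the core (3 of 14) or the 19S particle (7 of 17), so that a shift of this size was also measured in a complex outside the proteasome pathway.

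Within the remaining barcodes, which held most Pax7 and Myod1 UMIs, the subunit genes took 0.465% of UMIs in QSCs (0.450 to 0.480) and 0.811% in ASCs (0.803 to 0.819), a log2 ratio of 0.80 (0.76 to 0.85). Of the 42 genes, 40 had a ratio above 1, against 46.3% of genes, 12 were called higher, against 16.5%, and 0 lower, against 23.2%. Fibre-high barcodes started higher, at 0.689% in QSCs (0.654 to 0.725) and 1.05% in ASCs (1.04 to 1.06), a log2 ratio of 0.60 (0.53 to 0.68). There 35 of the 42 ratios were above 1, against 54.5% of genes, 9 were called higher, against 10.7%, and 0 lower, against 7.56%. The ratios within both of these classes were smaller than the pooled one, and fibre-high barcodes were the larger share in the ASC library. In immune-marker barcodes the share was 0.392% in QSCs (0.327 to 0.466) and 0.742% in ASCs (0.719 to 0.765), and in stromal-marker barcodes 0.424% (0.374 to 0.479) on 23 and 1.02% (0.820 to 1.26) on 4 barcodes, wider gaps than the pooled one.

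The ASC barcodes in the remaining class differed in depth. In 121 of them with cycling markers, at a median of 23692 UMIs, the subunit genes took 0.873% of UMIs (0.862 to 0.884). In 59 with commitment markers such as Myog, at a median of 11292 UMIs, they took 0.837% (0.815 to 0.859). In the other 229, with neither, at a median of 5218 UMIs, they took 0.699% (0.687 to 0.712), the lowest of these ASC values and still above the 0.460% (0.445 to 0.474) of the 368 QSC barcodes with neither. The part that depth plays in these values was not tested within them.

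To compare barcodes at equal depth, each was thinned to 1200 UMIs, which left out 28 QSC and 97 ASC barcodes. In the remaining class the median was 5 proteasome UMIs in QSCs (quartiles 3 and 7, 368 barcodes) and 8 in ASCs (quartiles 6 and 11, 404 barcodes). In fibre-high barcodes it was 8 in QSCs (quartiles 6 and 10, 90 barcodes) and 12 in ASCs (quartiles 9 and 16, 869 barcodes). The distributions overlapped in both classes, and the median and both quartiles were higher in ASCs. Over all kept barcodes the mean share was 0.491% in QSCs and 0.932% in ASCs after thinning.

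**Figure D3:**
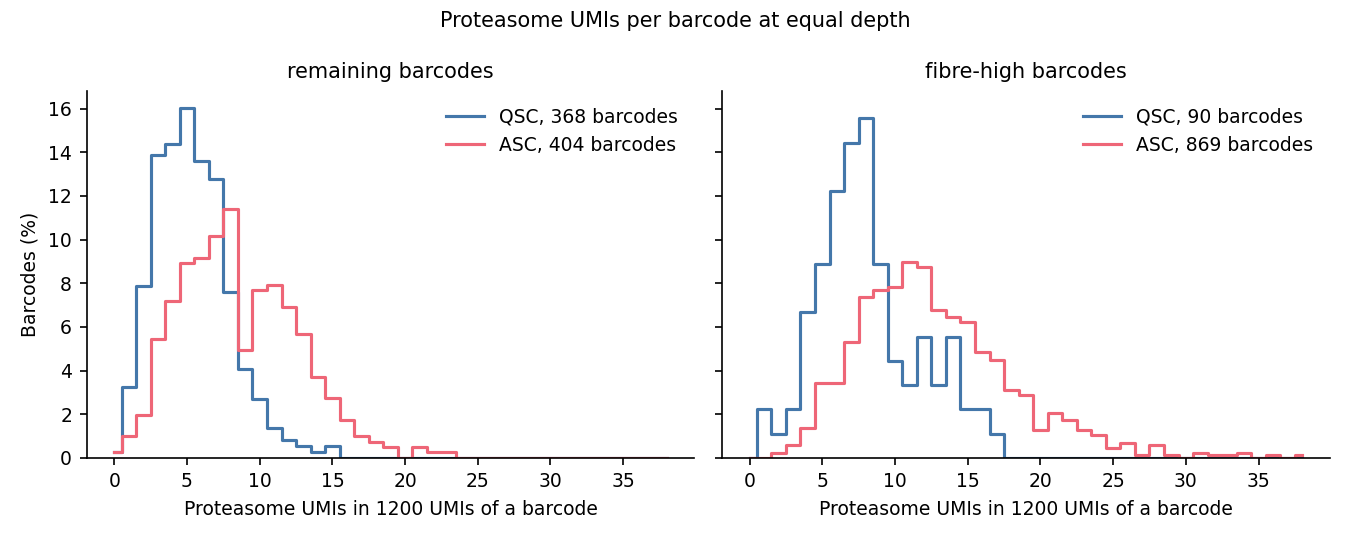
Percent of barcodes with a given number of proteasome UMIs after thinning each barcode to 1200 UMIs, for QSCs (blue) and ASCs (red), in the remaining class (left) and the fibre-high class (right). The ASC curve lies to the right in both panels, with medians of 8 against 5 and of 12 against 8 UMIs, and the curves overlap.

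Individual subunits differed between the classes. The difference of the log2 ratios, fibre-high minus remaining, is given with a normal approximation of the counting error. Psmd11 was the only member of the core or the 19S particle whose interval lay above 0: its log2 ratio was 1.70 in fibre-high barcodes (33 and 1553 UMIs) and 0.66 in the remaining barcodes (106 and 1025 UMIs), a difference of 1.04 (0.47 to 1.62). Its ASC level was 500 CPM in fibre-high and 196 in the remaining barcodes. Psmd8 was also 669 and 264 there, but its log2 ratios were 1.33 and 1.19, close together. Psmb7 went the other way, with 0.44 in fibre-high (59 and 1157 UMIs) and 1.57 in the remaining barcodes (76 and 1381 UMIs), a difference of -1.13 (-1.64 to -0.63). For Psma7 the log2 ratio was -0.14 in fibre-high barcodes (142 and 1865 UMIs) and 0.88 in the remaining barcodes (247 and 2777 UMIs), a difference of -1.02 (-1.33 to -0.71). Psmd7 had 0.35 and 1.19, a difference of -0.84 (-1.25 to -0.43). Psmb7, Psma7 and Psmd7 were already higher in fibre-high than in remaining QSC barcodes, by 1.63, 1.19 and 1.39 on the log2 scale. Psmb5 was higher within both classes, at 1.16 (0.73 to 1.62) and 1.49 (1.19 to 1.80). Psme1 was lower in fibre-high ASC barcodes, from 117 CPM (25 UMIs) to 60.2 (187 UMIs), a log2 ratio of -0.95 (-1.56 to -0.29), and was at 0.18 (-0.17 to 0.55) in the remaining barcodes. The intervals of Psmd10, Psmb10, Psmd12 and Psma3 also lay below 0, which makes 8 of the 40 members that could be compared below 0 and 1 above. Among all 7079 genes compared the same way 11.9% lay below 0 and 9.39% above, so intervals on either side of 0 were common outside the proteasome genes too.

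**Figure D4:**
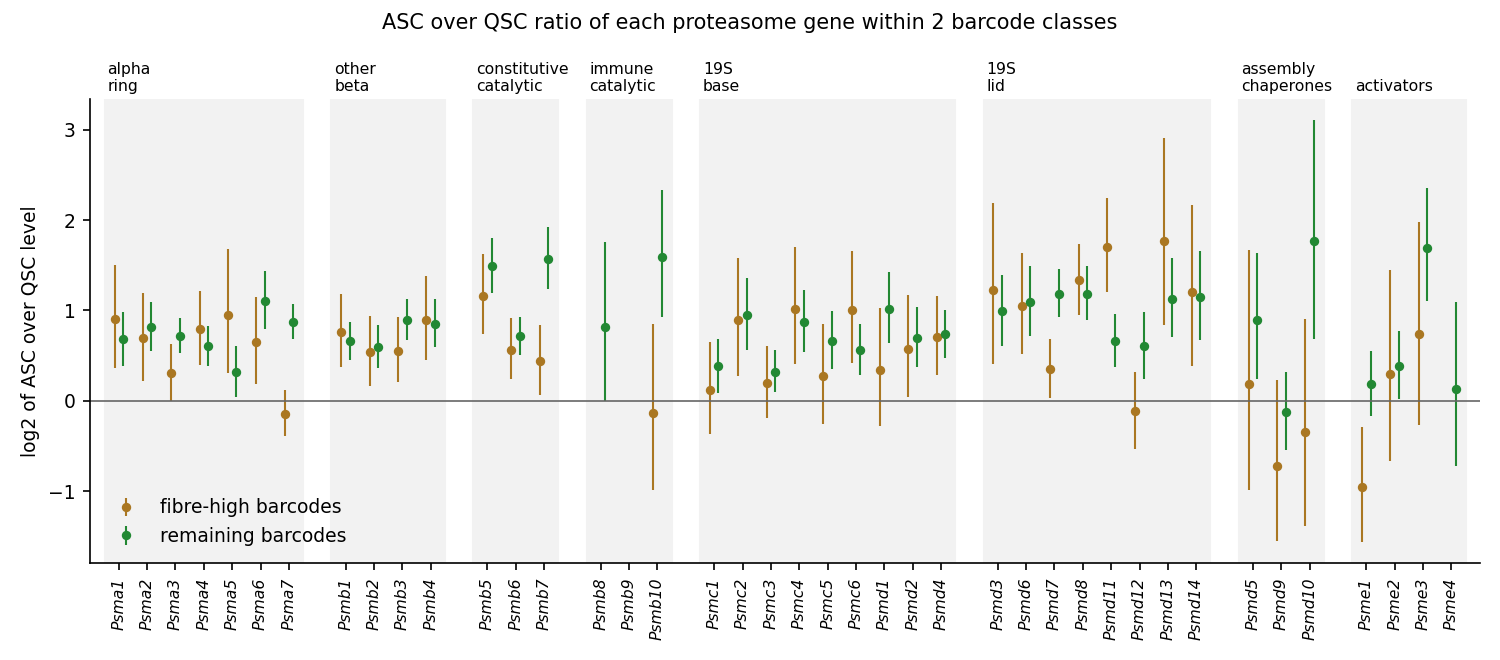
Log2 ratio of ASC over QSC of each proteasome gene within fibre-high barcodes (brown) and within the remaining barcodes (green), with 95% exact intervals of the counting error; genes with under 5 UMIs in a library of a class are not drawn. Psmd11 is higher in brown (1.70 against 0.66), and Psmb7 (0.44 against 1.57) and Psma7 (-0.14 against 0.88) are higher in green.

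Within the ASC library, fibre-high barcodes had higher levels than the remaining barcodes for all 14 core genes (median log2 difference 0.35) and for 14 of 17 genes of the 19S particle (median 0.32), against 40.1% of all genes. The lid genes led, with a median of 0.70 and a maximum of 1.35 for Psmd11. All 3 immune catalytic genes and the 4 activators with enough UMIs were lower in fibre-high barcodes, with medians of -1.86 and -0.85. In the QSC library 13 of the 14 core genes and 14 of the 17 genes of the 19S particle were higher in fibre-high barcodes, against 36.9% of all genes. These are counts of the sign. Of the 19S genes only Psmd4, Psmd6, Psmd7, Psmd8 and Psmd12 had an interval above 0 in that library. In the core the intervals of Psma1, Psma2, Psma4, Psma5, Psmb1 and Psmb4 held 0. The immune catalytic genes and activators were divided there: 1 immune gene was higher, 1 lower and Psmb9 had too few UMIs, and 2 activators were higher and 2 lower. Psmb10 was higher in fibre-high than in remaining QSC barcodes, by 1.33 (0.15 to 2.45) on the log2 scale from 12 and 19 UMIs, where in the ASC library it was at -0.40 (-0.68 to -0.12).

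The share of immune subunits among catalytic UMIs was nearly equal in both libraries. Psmb8, Psmb9 and Psmb10 made up 76 of 682 catalytic UMIs in QSCs, or 11.1% (8.88 to 13.7), and 1205 of 11094 in ASCs, or 10.9% (10.3 to 11.5). The log2 ratio of immune over constitutive UMIs, ASC against QSC, was -0.04, with an interval of -0.40 to 0.33. Pair by pair it was -0.27 (-0.91 to 0.42) for Psmb8 over Psmb5, 0.29 (-0.76 to 1.54) for Psmb9 over Psmb6 and -0.31 (-0.83 to 0.23) for Psmb10 over Psmb7. No pair differed beyond its counting error, and these intervals allow differences of close to 2-fold or more.

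The immune share followed the marker classes. It was 6.63% (3.58 to 11.1) in fibre-high QSC and 4.16% (3.59 to 4.78) in fibre-high ASC barcodes, and 8.41% (5.93 to 11.5) and 9.61% (8.86 to 10.4) in the remaining barcodes. In immune-marker barcodes it was 43.5% (10 of 23 UMIs, 23.2 to 65.5) in QSCs and 50.9% (468 of 919 UMIs, 47.6 to 54.2) in ASCs. In stromal-marker barcodes it was 38.3% (18 of 47 UMIs, 24.5 to 53.6) in QSCs and 62.5% in ASCs, on 8 UMIs only. The class with immune markers was 6.74% of ASC barcodes and held 38.8% of the immune catalytic UMIs of that library, and 62.1% of those of Psmb8. For Psmb10 that was 20.2%, and 54.9% of its ASC UMIs were in the remaining barcodes. Without immune-marker barcodes the immune share of ASCs was 7.24%, and the log2 ratio of immune over constitutive UMIs was -0.51 (-0.90 to -0.11). In the remaining barcodes alone it was 0.21 (-0.31 to 0.77), so that the estimate changed sign with the classes kept, while these intervals overlapped. Stromal-marker barcodes, which stay in when only immune-marker barcodes are left out, held 23.7% of the immune catalytic UMIs of the QSC library and 0.415% of those of the ASC library.

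**Figure D5:**
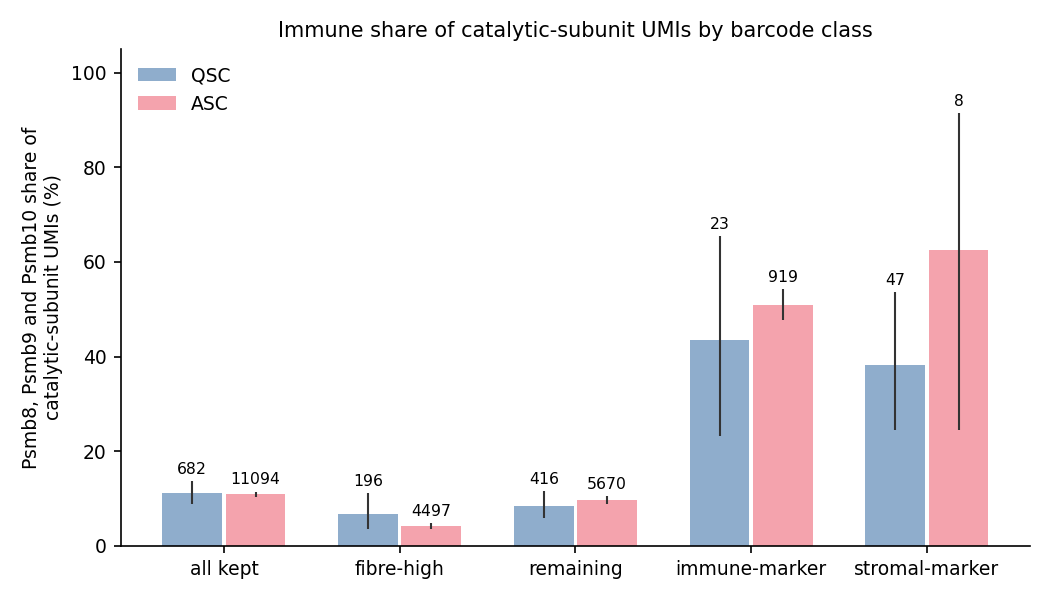
Share of Psmb8, Psmb9 and Psmb10 among the UMIs of the 6 catalytic subunit genes, in percent, by barcode class, for QSCs (blue) and ASCs (red). Bars are the pooled share, lines are 95% Clopper-Pearson intervals and the numbers above are the catalytic UMIs. The libraries are nearly level over all kept barcodes (11.1% and 10.9%), and the immune-marker class stands at 43.5% and 50.9%.

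By level, Psmb8 was at 497 CPM (440 to 559) in immune-marker ASC barcodes, 26.8 (22.5 to 31.6) in the remaining ASC barcodes and 7.40 (4.69 to 11.1) in the fibre-high ones. Psmb9 was at 118 (91.0 to 150), 10.5 (7.93 to 13.7) and 1.93 (0.709 to 4.20) in the same order. Psmb10 was at 234 (195 to 278), 66.9 (60.1 to 74.3) and 50.8 (43.2 to 59.4), a flatter profile than those of the other two. All 3 kept this order of classes with no overlap between neighbouring intervals, and the narrowest gap was that of Psmb10 between the remaining and the fibre-high class. In the remaining barcodes Psmb10 was at 22.3 (19 UMIs) in QSCs and 66.9 (350 UMIs) in ASCs, a log2 ratio of 1.59 (0.92 to 2.34), and it was the immune gene with the most UMIs outside immune-marker barcodes. Psme1 and Psme2 were also highest in immune-marker ASC barcodes, at 334 (287 to 385) and 256 (215 to 302), against 98.3 and 103 in the remaining ASC barcodes. Psme3 was not: it was at 54.4 (36.7 to 77.7) in immune-marker and 91.0 (83.0 to 99.6) in the remaining ASC barcodes. UMIs of free RNA and barcodes that hold more than 1 cell were not removed, and their part in the values of the immune genes outside immune-marker barcodes was not tested.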

How the data were processed

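Single-cell 3′ libraries of sorted QSCs and ASCs were analysed from the deposited matrices of raw UMI counts. The authors processed reads with Cell Ranger on mm10; the submitters' processing notes name version 7.1.0 and the file header 6.0.2, so whether intronic reads were counted is not settled. The members, gene lists and barcode classes were chosen with earlier results of these data known. Barcodes needed at least 500 genes and at most 10% mitochondrial UMIs; the 1% limit of the study's methods was an alternative, since it leaves 86 QSC and 948 ASC barcodes. A total of 4 barcode sequences occurred in both libraries. Classes came from the summed share of marker genes, with cuts of 5% (fibre), 0.5% (immune), 1% (stromal), 0.1% (cycling) and 0.5% (commitment); 2 QSC and 43 ASC barcodes had a fibre share of 4 to 6%. No doublet caller was run. UMIs were summed per library and class and divided by the total. With 1 library per group no test was run. Poisson, conditional binomial and Clopper-Pearson intervals were computed in Python (scipy 1.17.1), TMM factors in edgeR 4.0.16, and interval code was tested on simulated data. A median log2 ratio was taken with 0.5 UMIs added. Genes named are the catalytic and immune catalytic subunits, members past 2-fold, the 5 highest and 5 lowest ratios with at least 20 UMIs in each library, and, of other lists, genes past 2-fold and both extremes; other members are named where the text compares them, after their values were seen. Gene positions were taken from GENCODE M21, and promoter windows from RefSeq. Of the members, 15 have annotated copies of at least 90% identity over 300 bases, 28 in all, of which 0 were among the counted features, so reads shared with a copy may have been lost or assigned to the gene. For 1 gene of the ubiquitin list the values are not reported here.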

Additional observations from a re-analysis of the deposited data

Results flagged for a closer look

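For 3 genes outside the subunits the ASC over QSC ratio ran in opposite directions in the fibre-high and the remaining barcodes, each beyond its counting error. The difference had no replicates and was not tested. The share of all genes with such opposite ratios is not given here. By the difference between the classes alone, 9.39% of 7079 genes had an interval above 0 and 11.9% below. Uchl5, a deubiquitinase bound to the 19S base, had a log2 ratio of -1.10 (-1.95 to -0.13; 13 and 88 UMIs) in fibre-high barcodes and 1.65 (0.92 to 2.47; 16 and 307 UMIs) in the remaining barcodes. Ubb, a polyubiquitin gene, had 0.74 (0.59 to 0.89; 373 and 9018 UMIs) and -1.26 (-1.32 to -1.21; 4065 and 10366 UMIs). Sqstm1, which carries ubiquitinated proteins to autophagy, had 0.73 (0.27 to 1.23; 40 and 962 UMIs) and -1.73 (-1.93 to -1.53; 312 and 575 UMIs).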

How the results depend on the processing

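No paired analysis was possible because each group was 1 library. The summed ratio (0.83) was 0.52 with the 1% mitochondrial limit, 0.78 with 5%, 0.93 after thinning, 0.60 in fibre-high barcodes, 1.14 with TMM and 1.15 with median-of-ratios scaling. In the same order the core median (0.79) was 0.60 with 1%, 0.89 thinned, 0.65 in fibre-high barcodes, 1.10 and 1.11, and the 19S median (0.96) was 0.74 with 1%, 0.88 with 5%, 1.11 thinned, 0.86 in fibre-high barcodes, 1.27 and 1.28. The 19S median was also 0.85 with at least 1000 genes per barcode, and 0.87 without fibre-high barcodes and in the remaining barcodes alone. The count of 13 members called higher was 8 with the 1% limit, 27 with either scaling and 32 at a fold of 1.5, and 0 were called lower in each. Over all genes 37.5% of calls were higher, and 65.8% with the 1% limit. That share was 57.7% with TMM, 57.6% with median-of-ratios scaling and 41.9% at a fold of 1.5. It is a share among calls. The share of all genes called is not given for these settings, so the counts of 8, 27 and 32 lack that background. The immune share of QSCs (11.1%) was 7.41% with the 1% limit, 8.41% in the remaining and 6.63% in fibre-high barcodes. That of ASCs (10.9%) was 6.18%, 9.61% and 4.16% there, 11.5% with at least 1000 genes, 15.4% without fibre-high and 7.24% without immune-marker barcodes, and 9.08% thinned. The log2 ratio of immune over constitutive UMIs (-0.04) was -0.51 (-0.90 to -0.11) without immune-marker barcodes and -0.71 (-1.56 to 0.25) in fibre-high barcodes. It was 0.29 (-0.11 to 0.71) without fibre-high barcodes and 0.21 (-0.31 to 0.77) in the remaining barcodes. The estimate thus changed sign with the class kept, but only the interval without immune-marker barcodes did not hold 0. With the 1% limit 5 of 38 members turned below 0, which were Psma7 (-0.12), Psmb10 (-0.14), Psmd12 (-0.28), Psmc1 (-0.14) and Psmd10 (-0.13), and in fibre-high barcodes Psma7 (-0.14), Psmb10 (-0.14), Psmd12 (-0.12) and Psmd10 (-0.35) did. These intervals held 0. The 1% limit leaves 179757 of the 1162091 QSC UMIs; median mitochondrial content was 0.719% in fibre-high and 4.88% in the remaining QSC barcodes. The cause of these changes was not tested. The analyses of fibre-high barcodes alone and without shared barcodes were added after the data were seen. Psmb9 had 8 UMIs in the QSC library.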
